A study of Mus musculus with 12 samples.

Results

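The AP-1 subunits and immediate early factors comprise Jun, Junb, Jund, Fos, Fosb, Fosl2, Atf3, Egr1, Egr2 and Ier2. They were taken by gene symbol from the table of raw counts, where they are 10 of 22738 gene rows, and all 10 were among the 17426 genes that passed the filter on low counts. Expression was measured by poly(A) RNA-seq in flash-frozen, dissected lung tumour from RPM mice, a genetic model of small cell lung cancer, which is a tumour of neuroendocrine character. In all 4 groups the mice carried floxed Rb1 and p53 alleles (Rb1 fl/fl, p53 fl/fl) and a Cre-inducible Myc T58A allele (Myc lsl/lsl), and tumours were started at 8 weeks of age with Ad5CGRP-Cre. This adenovirus was instilled into the trachea and expresses Cre from the promoter of a neuroendocrine peptide gene, so that recombination is aimed at neuroendocrine cells and the other cells of the lung keep intact alleles. No source used here gives the age at collection. The control group is named only as control, with methylcellulose vehicle and an isotype antibody described as the study's controls. The anti-PD-1 group received an antibody against the T cell receptor PD-1 at 10 mg/kg by intraperitoneal injection over 4 weeks. The entinostat group received this class I histone deacetylase inhibitor orally at 15 mg/kg daily for 28 days. The combination group received both agents, per the sample titles. Each group had 3 libraries, and whether the 3 are different mice is not stated, so that a p-value here speaks only of the scatter among the libraries sequenced.

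AP-1 is a dimer of bZIP proteins, in which a leucine zipper holds a pair of subunits together and a basic region contacts DNA. JUN proteins pair with themselves or with FOS proteins, while FOS proteins need a partner such as JUN. Many of these genes are immediate early genes: growth factor and stress signals carried by MAP kinases switch them on within minutes, without new protein synthesis, and their transcripts are short-lived. EGR1 and EGR2 are zinc finger factors of the same early response, ATF3 is a stress-induced bZIP partner of JUN, and IER2 is a small early response protein. In lung tissue such genes respond to injury, to inflammation and to the handling of the tissue itself.

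The libraries held between 31295987 and 54001886 counts, the control libraries being the deepest at 40534618 or more. The fewest counts of any of the 10 genes were 10, for Fosb, and Jun had at least 654 in every library. Structural RNAs (Rn45s, Rpph1 and Rmrp) took 7.84% to 13.2% of the counts in the control libraries, 20.5% to 36.4% with anti-PD-1, 15.2% to 19.3% with entinostat and 17.7% to 18.05% with the combination. The summed level of 12 neuroendocrine markers was 1074 to 1988 CPM (counts scaled to an equal total per library) in the control group, 820 to 1206 with anti-PD-1, 642 to 1109 with entinostat and 512 to 1053 with the combination, and none of the 12 was at 0 in any library. Levels below are CPM scaled with TMM factors, which correct for differences in composition. In bulk tissue, fewer cells of a type and less RNA per cell cannot be told apart.

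Set against exon length, Jund and Jun were the most abundant of the 10 transcripts, with means over the 12 libraries of 18.4 and 13.6 CPM per kilobase of exon. Ier2 (7.72) and Junb (6.85) followed, then Atf3 (3.33), Fos (3.27), Egr1 (1.56), Fosl2 (1.49), Egr2 (0.856) and Fosb (0.157 CPM per kilobase). The order differed between groups: in the control group Jun stood at 21.2 and Junb at 4.51 CPM per kilobase, whereas in the combination group Jun stood at 7.61, Junb at 8.06 and Jund at 17.1. Fosb, Fos and Egr1 varied most between libraries among the 10 genes. Over the 12 libraries the coefficient of variation of the CPM was 79.7% for Fosb, 63.9% for Fos and 57.9% for Egr1, against a median of 38.4% over all tested genes. It was 27.3% for Fosl2, 29.3% for Junb and 33.4% for Jund, all under that median, and between 39.5% and 41.9% for Ier2, Egr2, Atf3 and Jun.

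**Figure D1:**
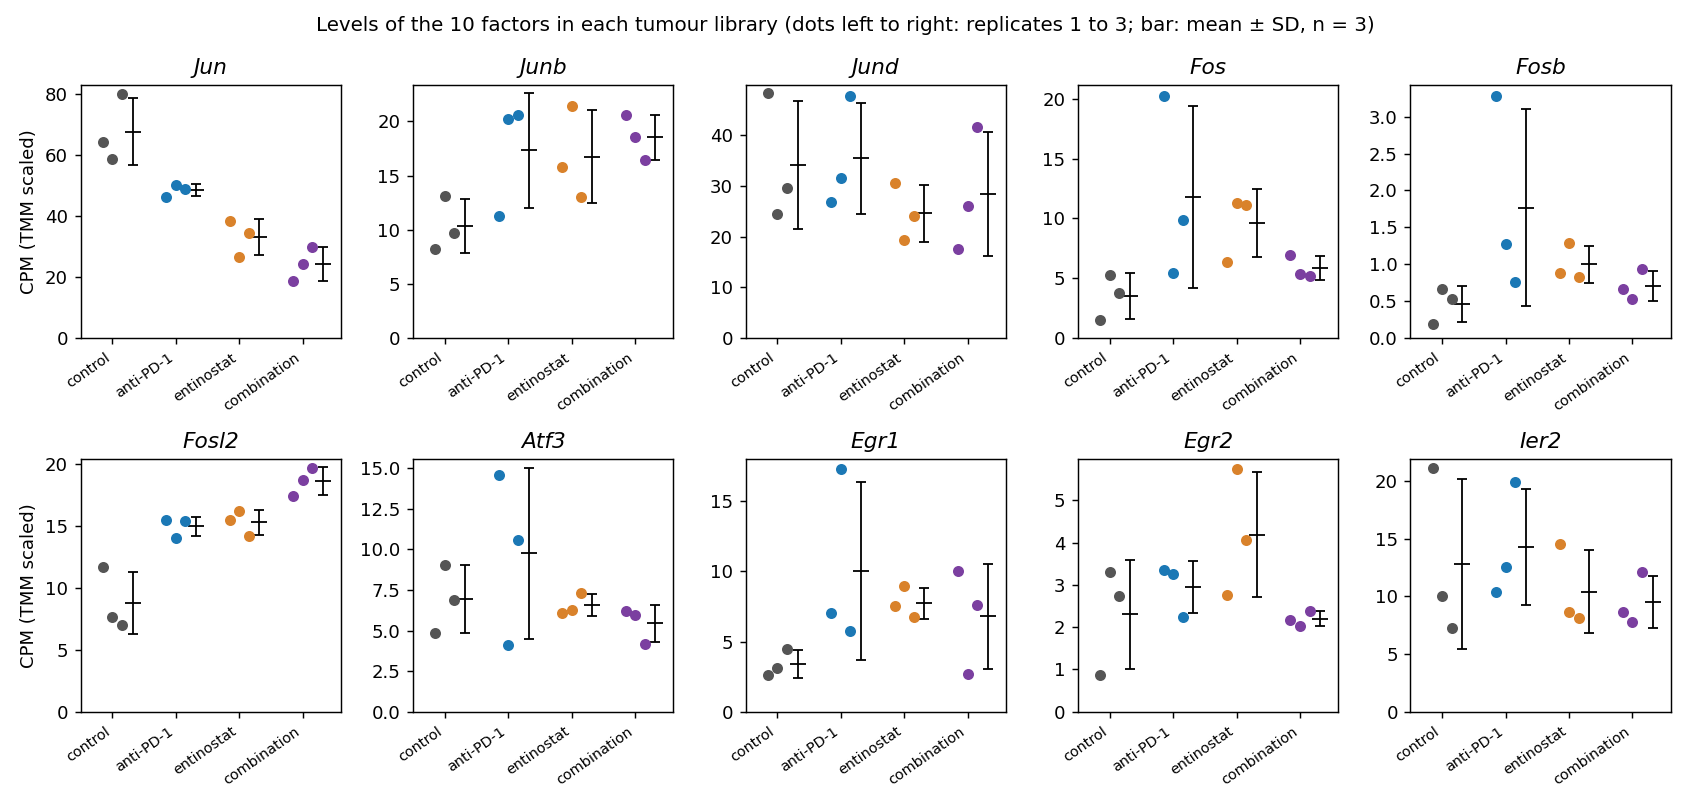
CPM (TMM scaled, vertical axis, from 0) of the 10 factors in each library of the 4 groups; dots are the 3 libraries of a group and bars the mean ± SD. Jun lies lowest and Fosl2 highest in the combination group, while Fos, Fosb and Egr1 are scattered widely within the anti-PD-1 group.

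Jun encodes c-JUN, the JUN protein with the strongest activating function. Its level was 64.0, 58.7 and 79.8 CPM in the control libraries, 46.2, 49.97 and 48.9 CPM with anti-PD-1, 38.2, 26.6 and 34.3 CPM with entinostat, and 18.7, 24.3 and 29.8 CPM with the combination. All 6 libraries with entinostat were below all 6 without it, and the anti-PD-1 libraries were below the control libraries, whereas the entinostat and combination libraries overlapped. The group means were 67.5 ± 10.9 CPM for control, 48.3 ± 1.96 for anti-PD-1, 33.0 ± 5.86 for entinostat and 24.3 ± 5.54 for the combination (mean ± SD of 3 libraries per group). Jun fell by 1.01 on the log2 scale for the entinostat main effect, the mean of its effects in the absence and presence of the antibody (SE 0.15, edgeR adjusted p = 0.00697). Its p-value ranked 69 among the 17426 genes. Against control, Jun fell by 1.48 on the log2 scale with the combination (SE 0.22, adjusted p = 0.0079) and by 1.03 with entinostat alone (SE 0.22, adjusted p = 0.0253).

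An alveolar score, the mean log2 CPM of 16 alveolar epithelial markers in a library, served as covariate in an alternative fit. The difference of Jun between entinostat alone and control did not pass in a fit with the alveolar score as covariate (adjusted p = 0.148, with 0 of all genes passing), with upper quartile scaling (0.0636), in a fit of those groups alone (0.0952, again with 0 of all genes passing), or without control library 1 (0.0528), entinostat library 1 (0.0526), entinostat library 2 (0.0992) or entinostat library 3 (0.0880). The entinostat main effect on Jun passed in all 20 alternatives run, with log2 fold changes from -1.10 to -0.88. For anti-PD-1 alone the log2 fold change of Jun against control was -0.48 (SE 0.21, edgeR adjusted p = 0.308, and -0.31 with upper quartile scaling), and for the anti-PD-1 main effect it was -0.46 (SE 0.15, adjusted p = 0.383). Between the combination and anti-PD-1 the log2 fold change was -0.99 (SE 0.22), with an adjusted p of 0.201 by edgeR and 0.00454 by DESeq2. Between entinostat and anti-PD-1 it was -0.55 (SE 0.21, adjusted p = 0.511). These comparisons share groups and are not independent of each other.

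The 250 bases before the start of Jun are shown because its level moved most clearly, beside those of Fosl2, which moved in the opposite direction in the combination group, and of Fos, the partner subunit with scattered levels. Sequences are from RefSeq on GRCm38.p6, given 5′ to 3′ on the gene's strand: Jun at chr4:95052223-95052472 (minus strand), Fosl2 at chr5:32136222-32136471 (plus strand) and Fos at chr12:85473640-85473889 (plus strand). Capitals mark TGACATCA in Jun and TATAAA in Fos.
Jun: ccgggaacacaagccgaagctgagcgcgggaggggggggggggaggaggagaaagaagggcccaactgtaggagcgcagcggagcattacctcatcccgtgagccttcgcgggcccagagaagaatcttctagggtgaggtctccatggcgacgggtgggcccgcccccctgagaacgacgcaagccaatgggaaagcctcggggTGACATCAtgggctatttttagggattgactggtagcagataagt
Fosl2: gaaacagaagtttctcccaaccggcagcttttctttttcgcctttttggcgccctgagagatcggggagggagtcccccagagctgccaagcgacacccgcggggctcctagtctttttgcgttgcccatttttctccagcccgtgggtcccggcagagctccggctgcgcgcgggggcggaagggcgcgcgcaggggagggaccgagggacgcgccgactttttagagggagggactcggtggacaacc
Fos: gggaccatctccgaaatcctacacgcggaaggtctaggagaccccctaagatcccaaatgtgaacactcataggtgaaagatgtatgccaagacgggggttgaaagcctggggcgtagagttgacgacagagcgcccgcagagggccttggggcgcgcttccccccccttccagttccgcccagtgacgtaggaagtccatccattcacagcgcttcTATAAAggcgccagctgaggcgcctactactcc
Both strands were searched for the AP-1 element TGANTCA (held by 6.75% of 32851 promoters of the same length), the cyclic AMP element TGACGTCA (1.55%), its looser form TGACNTCA (7.49%, which also takes in every TGACGTCA), the EGR element GCGTGGGCG (0.536%), the TATA motif TATAAA (12.4%) and the serum response factor's CArG box (1.47%). TGACNTCA and TATAAA were added after the first search had been seen. The Jun window held TGACATCA from base -45 to -38 before the start. The Fos window held TATAAA from base -33 to -28, and none of these motifs was in the Fosl2 window. GC content was 61.2% for Jun, 64.4% for Fosl2 and 58.4% for Fos, against a median of 52.4%. RefSeq entries were matched for 8 of the 10 genes, not for Egr1 and Ier2. A match describes letters in the window and does not show a binding site.

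Junb encodes a JUN protein that often acts as a weaker activator and can restrain c-JUN. Its level was 8.26, 13.1 and 9.74 CPM in the control libraries, 11.2, 20.2 and 20.6 CPM with anti-PD-1, 15.8, 21.5 and 13.04 CPM with entinostat, and 20.6, 18.6 and 16.5 CPM with the combination. The combination libraries were all above the control libraries, and the single treatments overlapped the control group. The log2 fold change of Junb against control was 0.84 with the combination (SE 0.30, edgeR adjusted p = 0.0878, and 0.043 by DESeq2), 0.74 with anti-PD-1 (SE 0.30, edgeR adjusted p = 0.272) and 0.69 with entinostat (SE 0.30, edgeR adjusted p = 0.182). With the alveolar score as covariate these values of Junb were 0.47, 0.48 and 0.26, and without entinostat library 2 the entinostat value was 0.46. Jund, the JUN gene that is expressed constitutively in many cells, was at 48.4, 24.5 and 29.6 CPM in the control libraries, 26.9, 31.7 and 47.9 with anti-PD-1, 30.5, 19.3 and 24.0 with entinostat, and 17.6, 25.98 and 41.7 with the combination. Jund overlapped between every pair of groups, and no comparison of it had an unadjusted p under 0.05 in edgeR.

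Fosl2 encodes FRA-2, a FOS protein without the strong activation domain of c-FOS that is made later and more stably in the early response. Its level was 11.6, 7.64 and 7.03 CPM in the control libraries, 15.5, 14.0 and 15.4 CPM with anti-PD-1, 15.5, 16.2 and 14.2 CPM with entinostat, and 17.4, 18.7 and 19.7 CPM with the combination. The groups were ordered control, then anti-PD-1 and entinostat, which overlapped, then the combination, whose libraries were above all 9 others. The group means were 8.77 ± 2.51, 15.0 ± 0.79, 15.3 ± 1.00 and 18.6 ± 1.13 CPM in the same order (SD, n = 3 each). Fosl2 rose by 1.09 on the log2 scale with the combination against control (SE 0.23, edgeR adjusted p = 0.0179). That call was lost without combination library 1 (adjusted p = 0.0585) or combination library 3 (0.0638), and in a fit of those groups alone (0.0886). With entinostat alone the log2 fold change of Fosl2 was 0.80 (SE 0.23, adjusted p = 0.0676 by edgeR and 0.00942 by DESeq2), and with anti-PD-1 alone it was 0.77 (SE 0.23, adjusted p = 0.17 by edgeR and 0.0337 by DESeq2). The entinostat main effect was 0.56 (SE 0.16, edgeR adjusted p = 0.0506) and passed without control library 1 (0.0240). The combination's difference from each single treatment did not pass (edgeR adjusted p = 0.606 against anti-PD-1 and 1 against entinostat).

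**Figure D2:**
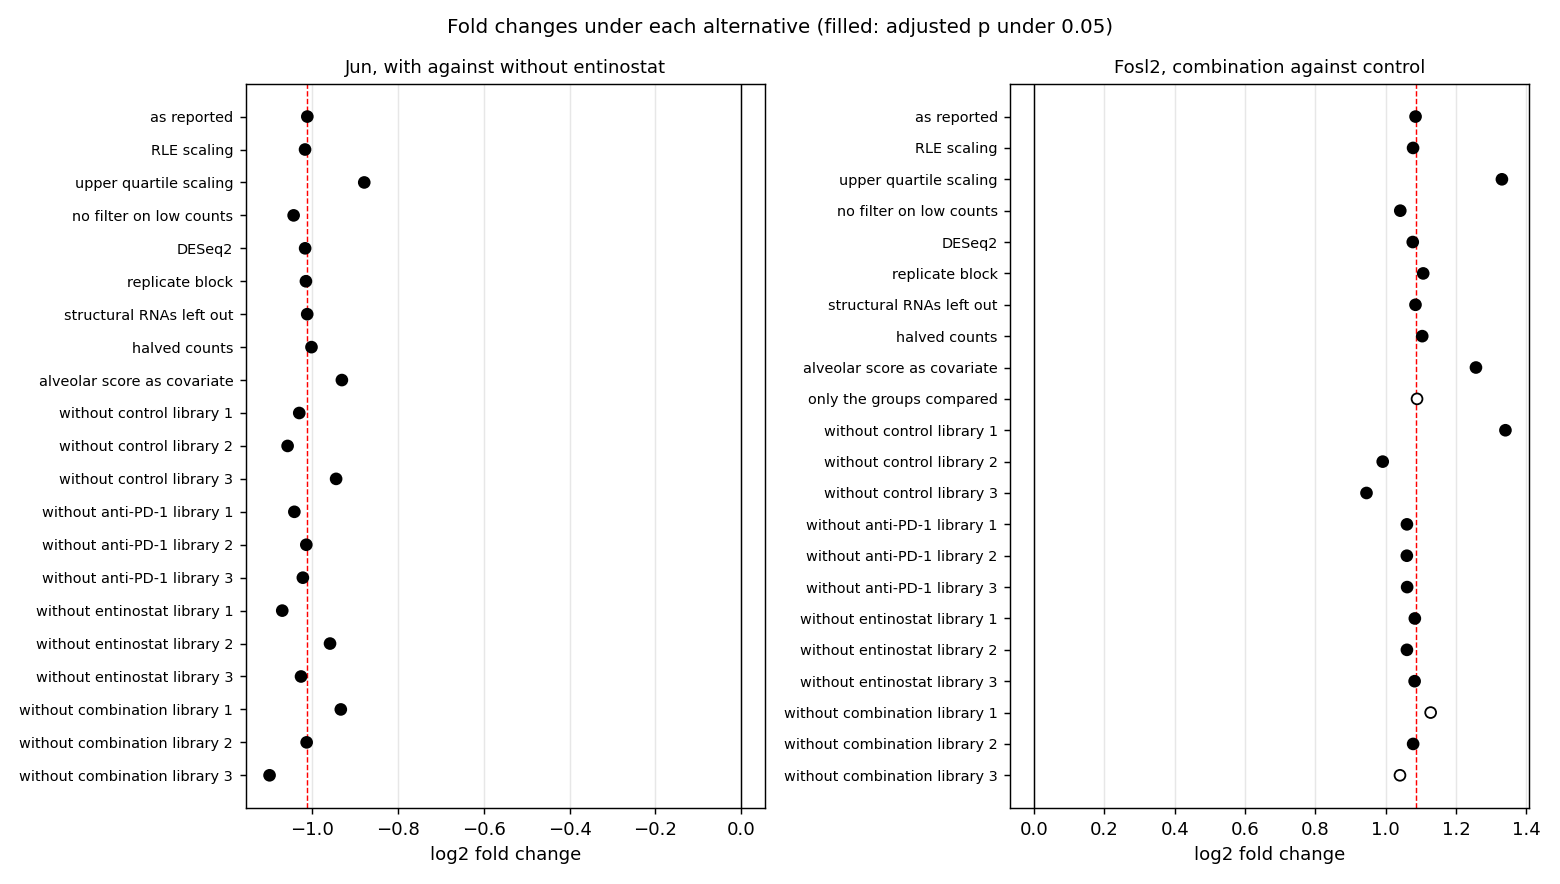
Log2 fold change (horizontal axis) of Jun with against without entinostat (left) and of Fosl2 in the combination against control (right), as reported and under each alternative (rows); filled points have an adjusted p under 0.05 and the dashed line is the reported value. Jun passes under every alternative shown, between -1.10 and -0.88, while the open points of Fosl2 are the fit of the compared groups alone and the fits without combination library 1 or 3.

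Fos, which encodes c-FOS, was at 1.49, 5.24 and 3.80 CPM in the control libraries, 20.2, 5.40 and 9.85 CPM with anti-PD-1, 6.33, 11.3 and 11.2 CPM with entinostat, and 6.97, 5.33 and 5.20 CPM with the combination. The anti-PD-1 and entinostat libraries were each above the control libraries, and the combination libraries overlapped them. The log2 fold change of Fos against control was 1.75 with anti-PD-1 (SE 0.54, adjusted p = 0.177 by edgeR and 0.0331 by DESeq2) and 1.45 with entinostat (SE 0.54, adjusted p = 0.129 by edgeR and 0.0456 by DESeq2). Fosb, its close paralogue, was at 0.20, 0.66 and 0.53 CPM in the control libraries, 3.28, 1.27 and 0.76 CPM with anti-PD-1, 0.88, 1.29 and 0.82 CPM with entinostat, and 0.66, 0.53 and 0.93 CPM with the combination. Here too the anti-PD-1 and entinostat libraries were above the control libraries, at levels that rest on 10 to 98 counts. The log2 fold change of Fosb with anti-PD-1 was 1.93 (SE 0.68, edgeR adjusted p = 0.215). Without anti-PD-1 library 1 the anti-PD-1 values were 1.11 for Fosb and 1.10 for Fos.

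The interaction, the response to both agents less the sum of the responses to each, was tested for all 10 genes and did not pass for any. On the log2 scale it was -2.47 for Fos (SE 0.76, edgeR adjusted p = 0.722), -2.42 for Fosb (SE 0.94, adjusted p = 0.773) and -1.74 for Egr1 (SE 0.74, adjusted p = 0.817). It was -1.61 for Fosb without anti-PD-1 library 1 and -1.08 for Egr1 without anti-PD-1 library 2. The unadjusted p was under 0.05 for these 3 of the 10 genes and for 6.04% of all tested genes.

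Egr1 and Egr2 encode zinc finger factors that follow ERK signalling and bind GC-rich elements. Egr1 was at 2.60, 3.13 and 4.50 CPM in the control libraries, 7.02, 17.3 and 5.74 CPM with anti-PD-1, 7.52, 8.93 and 6.75 CPM with entinostat, and 10.1, 2.72 and 7.62 CPM with the combination. The libraries of each single treatment were above the control libraries, whereas combination library 2 lay within the control range. The log2 fold change of Egr1 against control was 1.55 with anti-PD-1 (SE 0.53, edgeR adjusted p = 0.206, and 0.89 without anti-PD-1 library 2) and 1.18 with entinostat (SE 0.53, adjusted p = 0.193). Egr2 was at 0.86, 3.31 and 2.73 CPM in the control libraries, 3.34, 3.25 and 2.24 with anti-PD-1, 2.77, 5.74 and 4.06 with entinostat, and 2.17, 2.04 and 2.39 with the combination. The combination libraries of Egr2 were below the entinostat libraries and inside the control range.

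Atf3 and Ier2 showed no separation between any pair of groups. Atf3 was at 4.87, 9.02 and 6.91 CPM in the control libraries, 14.6, 4.09 and 10.6 with anti-PD-1, 6.07, 6.27 and 7.33 with entinostat, and 6.23, 5.99 and 4.15 with the combination. Its anti-PD-1 libraries held both its highest and its lowest value of the 12. Ier2 was at 21.1, 10.0 and 7.26 CPM in the control libraries, 10.4, 12.6 and 19.9 with anti-PD-1, 14.5, 8.61 and 8.13 with entinostat, and 8.63, 7.80 and 12.1 with the combination. For Jund, Egr2, Atf3 and Ier2, the unadjusted p was 0.05 or more in each of the 9 comparisons.

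**Figure D3:**
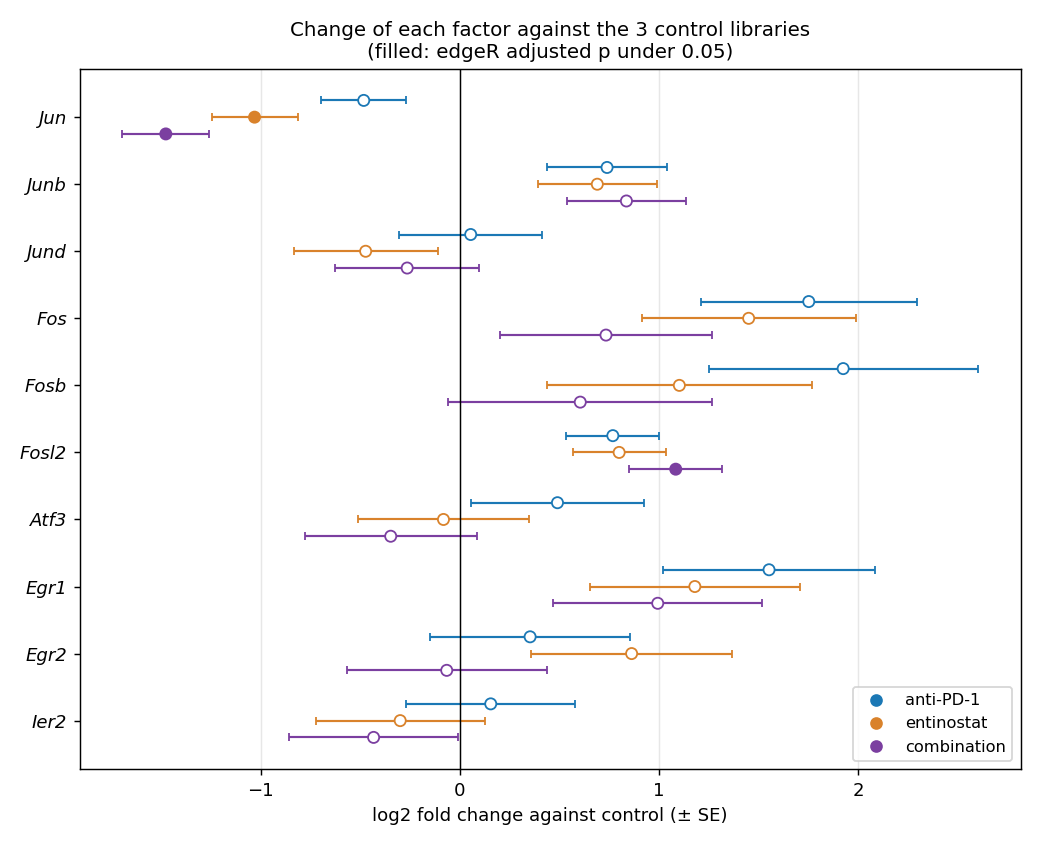
Log2 fold change against the 3 control libraries (horizontal axis, bars ± SE) of the 10 factors (rows) for anti-PD-1, entinostat and the combination; filled points have an edgeR adjusted p under 0.05. The filled points are Jun with entinostat (-1.03) and with the combination (-1.48), both left of 0, and Fosl2 with the combination (1.09), right of 0.

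Counted over comparisons, few of the 10 genes passed edgeR's test after adjustment over all genes. With entinostat against control 1 of 10 passed, beside 5.27% of all tested genes, and 5 had an unadjusted p under 0.05, beside 24.4%. With the combination against control 2 of 10 passed, beside 11.7%, and 3 had an unadjusted p under 0.05, beside 30.2%. For the entinostat main effect 1 of 10 passed, beside 10.6%, and 2 had an unadjusted p under 0.05, beside 29.1%. With anti-PD-1 against control 0 of 10 passed, beside 0.00574% of all genes. There 6 of 10 had an unadjusted p under 0.05, beside 15.4% of all genes, and DESeq2 called 2, Fos and Fosl2, among 648 of all genes. In the combination against anti-PD-1, 0 of 10 passed beside 0% of all genes, with 1 at an unadjusted p under 0.05 (12.4% of all genes) and 1 by DESeq2, which called 429 of all genes. In the combination against entinostat, 0 of 10 passed beside 0%. There 0 had an unadjusted p under 0.05 (1.55% of all genes) and DESeq2 called 0 (0.00574% of all genes). In entinostat against anti-PD-1 the counts were 0 of 10 beside 0%, with 1 unadjusted (8.79% of all genes) and 0 by DESeq2 (0.844%). For the anti-PD-1 main effect they were 0 of 10 beside 0%, with 2 unadjusted (10.8% of all genes) and 0 by DESeq2 (0.591%). There DESeq2 gave an adjusted p only to Jun and Jund, so it could not call any other of the 10 genes. For the interaction the counts were 0 of 10 beside 0%, with 3 unadjusted (6.04% of all genes) and 0 by DESeq2 (0.327%).

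Separation of the libraries is a looser measure, and the share of all genes that separated is given beside each count. Whether a count differs from that share was not tested. With entinostat against control, 5 of the 10 genes had groups that did not overlap (Fos, Fosb, Fosl2 and Egr1 higher, Jun lower), beside 28.8% of all genes. With anti-PD-1 against control, 5 did not overlap (Fos, Fosb, Fosl2 and Egr1 higher, Jun lower), beside 17.5%. The control libraries are the same in both counts. With the combination against control, 3 did not overlap (Fosl2 and Junb higher, Jun lower), beside 31.9%. In the combination against anti-PD-1, 2 did not overlap (Fosl2 higher, Jun lower), beside 19.2%, and in the combination against entinostat, 2 did not (Fosl2 higher, Egr2 lower), beside 6.81%. In entinostat against anti-PD-1 it was Jun alone, lower, beside 16.6%, and between the 6 libraries with and the 6 without entinostat it was again Jun alone, lower, beside 4.33%. The median log2 fold change of the 10 genes against control was 0.75 with entinostat, 0.62 with anti-PD-1 and 0.27 with the combination, where the medians of all genes were 0.00, 0.00 and 0.05.

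Ratios of counts within a library do not depend on the scaling between libraries, and they set the transcripts of possible dimer partners beside Jun. Jun is the denominator of each, so fewer Jun counts raise every ratio, whatever the other gene does. Fosl2 counts per Jun count were 0.182, 0.130 and 0.0882 in the control libraries, 0.335, 0.281 and 0.314 with anti-PD-1, 0.406, 0.607 and 0.414 with entinostat, and 0.933, 0.770 and 0.661 with the combination. None of the 4 groups overlapped another in this ratio. Junb counts per Jun count were 0.129, 0.224 and 0.122 in the control libraries, 0.243, 0.405 and 0.421 with anti-PD-1, 0.414, 0.805 and 0.380 with entinostat, and 1.10, 0.763 and 0.553 with the combination. All treated libraries lay above all control libraries in the ratio of Junb to Jun. Jund counts per Jun count were 0.755, 0.417 and 0.371 in the control libraries, 0.583, 0.634 and 0.979 with anti-PD-1, 0.800, 0.723 and 0.700 with entinostat, and 0.942, 1.07 and 1.40 with the combination. There the combination libraries lay above the control and entinostat libraries. Fos counts per Jun count were 0.0232, 0.0892 and 0.0476 in the control libraries, 0.438, 0.108 and 0.201 with anti-PD-1, 0.166, 0.424 and 0.325 with entinostat, and 0.373, 0.219 and 0.175 with the combination. In this ratio all treated libraries lay above all control libraries, and the 3 treated groups overlapped. The ratio of Egr1, a zinc finger factor, to Jun separated in the same way. It was 0.0406 to 0.0565 in the control libraries and 0.112 to 0.538 in the treated libraries. Ratios of other genes to Jun were not computed, so separation is not shown to be particular to partners. The ratios were chosen after the levels had been seen and were not tested.

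**Figure D4:**
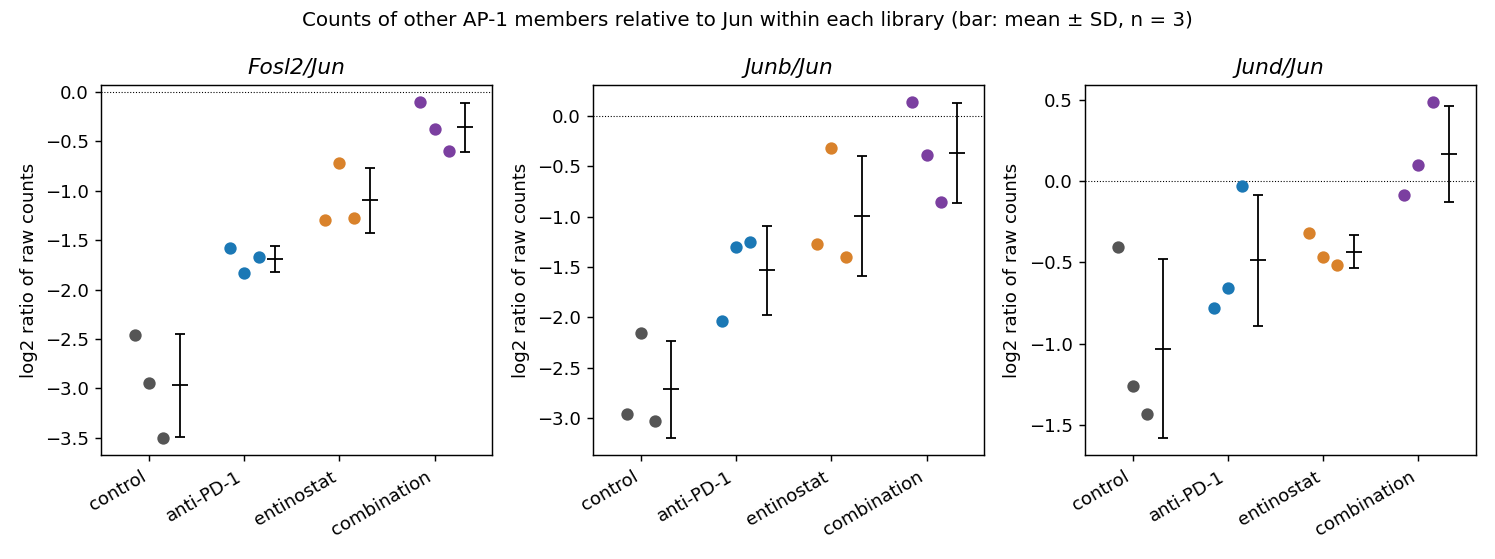
Log2 ratio of raw counts (vertical axis) of Fosl2, Junb and Jund to Jun in each library of the 4 groups; dots are libraries, bars the mean ± SD (n = 3), and the dotted line marks equal counts. The ratio of Fosl2 to Jun has means of -2.97 (control), -1.69 (anti-PD-1), -1.10 (entinostat) and -0.36 (combination), with no overlap between groups.

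Covariation over the 12 libraries was computed for the 45 pairs of the 10 genes from log2 CPM, and 3 pairs passed after adjustment over the 45. The permutations exchanged libraries across the treatment groups, so a pair can pass through differences between groups alone. Fosl2 and Jun had a Pearson r of -0.80 (permutation p = 0.00085, adjusted p = 0.0297) and a Spearman rho of -0.90 (permutation p = 0.00017, adjusted p = 0.00765). Without control libraries 2 and 3, the farthest from the median in Fosl2, r was -0.78, but among deviations from the group means it was -0.11, so the relation lies between the groups. Fos and Fosb had r = 0.86 (permutation p = 0.00177, adjusted p = 0.0297) and rho = 0.66 (permutation p = 0.0237, adjusted p = 0.198). Among deviations from the group means r was 0.73, and without control library 1 and anti-PD-1 library 1 it was 0.44, so the relation rests largely on those libraries. Jund and Ier2 had r = 0.80 (permutation p = 0.00198, adjusted p = 0.0297) and rho = 0.73 (permutation p = 0.00966, adjusted p = 0.145). Among deviations r was 0.79, and without control library 1 and anti-PD-1 library 3 it was 0.54.

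Genes whose log2 CPM followed a factor most closely over the 12 libraries were ranked among 12456 genes, as a description. Those most like Jun were B4galt2 (r = 0.93), Msantd3 (0.93), Birc5 (0.92), Maea (0.92) and Plcl2 (0.92). Among deviations from the group means their r with Jun was 0.72, 0.67, 0.36, 0.47 and 0.48 in the same order, so much of this likeness lies between the groups. Birc5 encodes survivin, a protein of dividing cells, and B4galt2 a galactosyltransferase. Those most like Fos were the small RNA genes Snord22 (0.95), Snora30 (0.94), Mir3068 (0.93), Snora26 (0.92) and Snora62 (0.92). Their counts are uncertain, since such genes lie within longer transcripts and no source used here gives the strand setting or the handling of overlaps. Among deviations from the group means the r with Fos was 0.86 to 0.90 for these 5 small RNA genes. Fos was highest in anti-PD-1 library 1 and Egr1 in anti-PD-1 library 2, libraries in which structural RNAs took 25.6% and 36.4% of the counts. In anti-PD-1 library 2 Fos was at 5.40 CPM, the lowest of its group, and in anti-PD-1 library 1 Egr1 was at 7.02 CPM. The part of RNA composition in these levels was not tested.

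Around the 10 genes, other parts of the pathway were described from lists of named genes for the entinostat main effect, where 10.6% of all genes passed. Of 16 other FOS, ATF, BATF and MAF factors, 1 rose and 0 fell, with a median log2 fold change of 0.04 against 0.02 over all genes. It was Atf7, a bZIP factor close to ATF2, which rose from 19.0 ± 0.28 CPM in controls to 42.5 ± 9.32 with entinostat and 43.9 ± 12.6 with the combination (entinostat main effect 0.95, SE 0.19, edgeR adjusted p = 0.0148). Atf4, the factor of the integrated stress response, was at 204 ± 95.3, 191 ± 83.3, 141 ± 47.2 and 100.1 ± 6.07 CPM in control, anti-PD-1, entinostat and combination (SD, n = 3 each). Of 36 other immediate early genes, 2 rose and 1 fell, with a median of 0.35. Socs3, a feedback inhibitor of cytokine signalling, rose by 1.01 (SE 0.19, adjusted p = 0.0119), and Cyr61, a matricellular protein, by 1.06 (SE 0.26, adjusted p = 0.027). Btg1, an antiproliferative gene, fell by 0.57 (SE 0.14, adjusted p = 0.0285). With the combination against control, where 11.7% of all genes passed, 3 of these 36 did, all higher: Socs3 and the mRNA decay regulators Zfp36l1 and Zfp36l2.

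Upstream of the factors, 0 of 23 MAP kinase, SRF, ELK and CREB regulators rose and 2 fell with entinostat, with a median of -0.09, and DESeq2 called 1 higher and 3 lower. Mapk8, which encodes the JUN kinase JNK1, fell by 0.65 (SE 0.18, edgeR adjusted p = 0.0404). Mapk8 was at 108 ± 31.9 CPM in controls and 106 ± 23.3 under anti-PD-1, against 68.5 ± 10.0 under entinostat and 67.8 ± 10.7 under the combination. Of 18 genes listed as ERK output and feedback, 0 passed in edgeR, 3 had an unadjusted p under 0.05 and DESeq2 called 0. For the entinostat main effect 29.1% of all genes had an unadjusted p under 0.05 in edgeR, and DESeq2 called 19.5%. Dusp16, a phosphatase of JNK that the ERK list also holds, was at 141 ± 85.1, 207 ± 51.0, 142 ± 86.7 and 78.1 ± 30.2 CPM in control, anti-PD-1, entinostat and combination. Spred1, an inhibitor of RAS signalling, was at 48.1 ± 21.1, 51.8 ± 5.03, 61.3 ± 5.67 and 53.8 ± 9.36 CPM in the same order.

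Downstream, 2 of 21 genes known as AP-1 targets rose and 0 fell, beside 10.6% of all genes, with a median of 0.73 against 0.02 over all genes. Several cell marker lists had medians of similar size or larger. They were 1.29 for neutrophil, 0.91 for fibroblast and mural, 0.87 for alveolar and 0.68 for macrophage markers, and -0.68 to 0.38 in the remaining lists. Cd44, a hyaluronan receptor, rose by 1.09 (SE 0.22, edgeR adjusted p = 0.0151), from 14.5 ± 4.95 CPM in controls to 35.8 ± 6.25 with entinostat and 42.5 ± 12.4 with the combination. Spp1, which encodes osteopontin, rose by 2.49 (SE 0.67, adjusted p = 0.0389) and ranged from 2.54 to 268 CPM over the 12 libraries. Of 13 heat shock genes, 0 rose and 3 fell in edgeR, with a median of -0.05. DESeq2 called 2 of the 13 higher and 4 lower, beside 19.5% of all genes in either direction. Hspa8 fell by 0.80 (SE 0.13, adjusted p = 0.00758), Dnaja1 by 0.73 (SE 0.14, adjusted p = 0.0123) and Hsp90ab1 by 0.64 (SE 0.18, adjusted p = 0.0417). Their log2 fold changes with anti-PD-1 alone against control were -0.89, -0.58 and -1.08 in the same order (edgeR adjusted p = 0.0953, 0.196 and 0.113). With anti-PD-1 against control none of the 6 pathway lists had a member past edgeR's threshold. At an unadjusted p under 0.05 the counts were 1 of 16 FOS, ATF, BATF and MAF factors, 9 of 36 immediate early genes, 3 of 23 regulators, 6 of 18 ERK genes, 0 of 21 targets and 3 of 13 heat shock genes, and DESeq2 called 0, 2, 1, 1, 0 and 2 of them. Over all genes, 15.4% had an unadjusted p under 0.05 and DESeq2 called 648.

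These list genes did not hold equally when a library was left out. Hspa8, Atf7, Socs3, Cd44 and Dnaja1 passed without each of the 12 libraries in turn, Cyr61 in 9 of the 12 fits, Btg1 in 8, Hsp90ab1 in 4, Spp1 in 3 and Mapk8 in 2. In a fit with the alveolar score as covariate, Hspa8 still passed, whereas Atf7 (log2 fold change 0.89, adjusted p = 0.0746), Socs3 (0.95, adjusted p = 0.0595), Cd44 (0.74, adjusted p = 0.0510) and Dnaja1 (-0.74, adjusted p = 0.0560) did not. That fit called 272 of all genes, where the reported fit called 1849. The log2 fold change of Spp1 was 1.09 there (adjusted p = 0.317).

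Markers of other cells are given beside these results, for the entinostat main effect, in which 10.6% of all genes passed. There 29.1% of all genes had an unadjusted p under 0.05 in edgeR, and DESeq2 called 19.5%. The summed level of 11 fibroblast and mural markers was 491 to 588 CPM in controls, 254 to 1004 with anti-PD-1, 845 to 1030 with entinostat and 715 to 1609 with the combination, and 2 of the 11 (Pdgfra and Myh11) rose with entinostat. Of 12 neuroendocrine markers, 2 fell (Calca and Uchl1). Of 8 tested neutrophil markers 1 rose (Mmp8), at summed levels of 0.842 to 37.6 CPM in controls, 8.06 to 59.6 with anti-PD-1, 25.4 to 46.9 with entinostat and 10.7 to 77.2 with the combination. Of 16 alveolar markers 0 passed in edgeR, 0 had an unadjusted p under 0.05 and DESeq2 called 0, although their median log2 fold change was 0.87. Their sum ranged from 300 to 976 CPM in controls, 327 to 986 with anti-PD-1, 395 to 1451 with entinostat and 266 to 1595 with the combination. The largest part of this sum was Lyz2, with group means of 326, 327, 530 and 700 CPM in the same order. Of 12 macrophage markers 0 passed, 2 had an unadjusted p under 0.05 and DESeq2 called 1. Their sums were 71.6 to 181 CPM in controls, 94.0 to 144 with anti-PD-1, 88.3 to 224 with entinostat and 86.2 to 270 with the combination. The part of these cells in the levels of Jun, Fosl2 and the listed genes was not tested, apart from the fit with the alveolar score, in which the entinostat main effect on Jun was -0.93 (edgeR adjusted p = 0.0377) and the combination's effect on Fosl2 was 1.26 (adjusted p = 0.0476).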

How the data were processed

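RNA-seq of 12 lung tumour libraries was analysed, 3 in each of 4 groups taken from the sample titles. Combination libraries carry a treatment tag for the antibody only, and their titles, which name both agents, were followed. A single batch label covers the 12 libraries. The values are raw counts per gene in a table deposited by the authors. The submitters' processing notes name the build mm9, STAR 2.5.4a, Trimmomatic 0.36 and Trim Galore, besides R 3.5.1 with DESeq2 1.22.2. No source used here gives the annotation or strand setting. The share of even numbers among counts of 1 to 20 was 65.3% to 77.2%, so both mates of a pair may have been counted, and halved counts were an alternative. All of the 66 library pairs differed by more than sampling noise (lowest chi-square over its degrees of freedom 32.6).

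The fit used edgeR 4.0.16 (R 4.3.3): filterByExpr, TMM factors, a mean per group over all 12 libraries, robust quasi-likelihood F tests, and Benjamini-Hochberg adjustment over 17426 genes in each of 9 comparisons with a threshold of 0.05. A main effect averages an agent's effects in the absence and presence of the other, and the interaction is their difference. Fold changes are given where the unadjusted p was under 0.05, and otherwise mostly CPM. Correlations used log2 CPM (prior count 2) and two-sided permutation tests with 100000 resamples. On simulated data for the entinostat main effect, 200 of 17426 genes were changed in each of 3 sets. The fit found 22.5% of the 2-fold and 60.1% of the 4-fold changes, with 6.09% false calls. The data had 1849 genes past the threshold, and recovery with so many changed genes was not simulated. Exon lengths are of another build (GRCm38). DESeq2 1.42.0, other scalings, no filter, a replicate block, an alveolar covariate, fits of the compared groups alone and each library left out were alternatives.

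Named genes are all 10 factors and, from each pathway list, up to 3 members past the threshold in the entinostat main effect by smallest adjusted p, filled up to 2 by expression where fewer passed; genes named beside the combination and among cell markers are all that passed there. A gene that the rule takes is not reported here. The genes and lists were chosen with earlier results of these data known. Replicate numbers do not pair libraries.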

Additional observations from a re-analysis of the deposited data

Results flagged for a closer look

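In 20 sets, the 6 libraries with and the 6 without entinostat for each of the 10 genes, the gap of the highest or lowest library to its neighbour was compared with the whole range, and 2 sets exceeded Dixon's critical value of 0.625 for 6 samples. Chance alone flags about 1 in 20 sets. Fosb stood at 3.28 CPM in anti-PD-1 library 1, where the next highest library without entinostat had 1.27 CPM (gap 0.651 of the range). Egr1 stood at 17.3 CPM in anti-PD-1 library 2, where the next highest had 7.02 CPM (gap 0.699 of the range). Both sets join control and anti-PD-1 libraries.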

How the results depend on the processing

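None of the printed fold changes that were recomputed under the alternatives turned direction; genes named only beside the combination or as cell markers were not recomputed. With entinostat against control, the number of the 10 genes past the threshold was 1 as reported and 3 by DESeq2 (Fos, Fosl2 and Jun), which called 13.7% of all genes. It was 0 with the alveolar covariate and 0 in a fit of those groups alone (no gene of the table passed in either), and 0 to 1 with a library left out. With anti-PD-1 against control it was 0, and 2 by DESeq2, which called 3.72% of all genes. With the combination against control it was 2, and DESeq2 called Fosl2 and Junb higher and Jun lower, beside 20.6% of all genes. It was 0 in a fit of those groups alone, where no gene of the table passed, and 1 to 2 with a library left out. In the combination against anti-PD-1 it was 0, and 1 by DESeq2, which called 2.46% of all genes. For the entinostat main effect it was 1, and 2 with upper quartile scaling, 2 by DESeq2 (which called 19.5% of all genes) and 2 with halved counts (Fosl2 and Jun each time), and 1 to 2 with a library left out. With the replicate block it was 1 with entinostat against control, 2 with the combination against control and 1 for the entinostat main effect, and no call on the 10 genes changed; same-numbered libraries correlated at -0.29 to 0.23 in their deviations, and 1 of 12 libraries correlated best with its own number. Of member pairs, 3 passed by Pearson, 1 by Spearman, 0 among deviations from group means and 0 to 4 with a library left out. Upper quartile scaling moved the median of all genes from 0.00 to 0.20 with entinostat, from 0.00 to 0.17 with anti-PD-1 and from 0.05 to 0.28 with the combination against control. Causes were not tested. At 10 to 98 counts Fosb also carries counting error, whereas for Jun the spread between libraries sets the precision.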
